A study of Homo sapiens with 6 samples.

Results

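The accessible regions of 10 genes of the BCL2 family, BCL2, BCL2L1, BCL2L2, MCL1, BCL2A1, BCL2L11, BID, BIK, BMF and BAK1, were compared between senescent and non-senescent EndoC-βH3 cells. Promoter regions overlapped the 2 kb before or after the start of any protein-coding transcript of a member, and a distal region was any other region whose midpoint had a member's start site as its nearest within 100 kb. This gave 62 of the 108542 regions in the table, 14 at promoters and 48 distal. All 10 genes had a distal region and 9 had a promoter region, the exception being BCL2A1.

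EndoC-βH3 is a beta cell line derived from fetal human pancreas and immortalised by transgenes for the SV40 large T antigen and hTERT, which its CreER can excise, and the labels give its genotype as WT. Both groups came from this line, but the treatment of the senescent group activates CreER. By the study's account this removes both transgenes, which the control cells keep. Transgene loss, drug and senescence therefore differ together between the groups, and their separate effects were not tested. The senescent group (3 libraries) had received 4-hydroxytamoxifen for 3 weeks, at 1 mM according to the labels and at 1 µM according to the methods, and the non-senescent group (3 libraries) was the control. Accessibility was measured by ATAC-seq, in which a transposase inserts adapters into open DNA, from 100000 cells per library. No label states that the libraries of a group came from separate cultures, so the p-values cover only the spread between these libraries, which may be technical. Since all libraries are of 1 line, the values describe that line.

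The table holds the authors' deposited DESeq2 comparison and 0 columns for a single library, so no value per library can be shown. The mean signal is the normalised read count averaged over the 6 libraries, and the log2 fold change has a standard error (SE) and a p-value adjusted over all regions. The group levels given below are those implied by the mean signal and the fold change of a region. Which group is the numerator is not written in the table. The senescent group was assumed, as the study labels its changes, with a lower signal at the promoter of the proliferation gene MKI67 in senescent cells (log2 fold change -0.53 ± 0.10 SE). All directions rest on that reading. The MKI67 value is that of its strongest promoter region, which was not called by the rule given next. Of the 2 promoter regions of MKI67 1 was called lower, and of its 6 distal regions 2 were called higher. To be called, a region needed a fold change over 1.5, which is 0.58 on the log2 scale, with an adjusted p-value under 0.05. Of all regions, 15.4% were called higher and 10.3% lower in senescent cells.

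Proteins of the BCL2 family decide whether the outer mitochondrial membrane is permeabilised, the step at which a cell commits to apoptosis. BCL2, BCL-xL (from BCL2L1), BCL-W (from BCL2L2), MCL1 and BFL1 (from BCL2A1) hold this step back by binding the proteins that drive it. BIM (from BCL2L11), BID, BIK and BMF carry only the BH3 motif of the family and relay death signals, and BAK1 encodes BAK, which forms the pores. Senescent cells of many types are known to lean on the inhibitors for survival, and BCL-xL is a known survival factor of beta cells.

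None of the 14 promoter regions of these genes was called, where 3.56% of all 20094 promoter regions were called higher and 9.04% lower. Of the 48 distal regions 11 (22.9%) were called higher and 4 (8.33%) lower in senescent cells. Of all 55158 distal regions within 100 kb of a start site, 17.4% were called higher and 10.9% lower. The largest changes lay in the body of BCL2L1 and in weakly open regions near BCL2 and BCL2A1, and the largest falls lay near BMF and BID. The 300 bases around the middle of the 4 largest called rises and the 2 largest called falls, ranked by log2 fold change, are shown. All are the plus strand of hg38, and capitals mark a match to a motif named further on, on either strand. The windows of BCL2L1 are chr20:31699172-31699471 and chr20:31706317-31706616, both intronic. That of BCL2A1 is chr15:80007611-80007910, intergenic. That of BCL2 is chr18:63298894-63299193, intronic. The windows around the falls are chr15:40114381-40114680 near BMF and chr22:17785236-17785535 near BID, both intergenic.
BCL2L1 region 23.2 kb downstream: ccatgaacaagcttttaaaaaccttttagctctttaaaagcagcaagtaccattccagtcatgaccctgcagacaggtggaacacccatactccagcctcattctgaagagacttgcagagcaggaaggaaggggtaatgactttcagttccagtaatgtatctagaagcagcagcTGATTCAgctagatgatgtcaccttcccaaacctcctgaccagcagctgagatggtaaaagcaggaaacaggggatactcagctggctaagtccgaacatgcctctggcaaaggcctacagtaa
BCL2L1 region 16.1 kb downstream: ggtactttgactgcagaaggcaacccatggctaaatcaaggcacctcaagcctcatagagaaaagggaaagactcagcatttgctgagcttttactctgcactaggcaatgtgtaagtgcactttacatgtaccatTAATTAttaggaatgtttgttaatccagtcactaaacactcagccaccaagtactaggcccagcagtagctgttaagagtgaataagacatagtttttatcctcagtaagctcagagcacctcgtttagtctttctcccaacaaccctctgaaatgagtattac
BCL2A1 region 36.6 kb upstream: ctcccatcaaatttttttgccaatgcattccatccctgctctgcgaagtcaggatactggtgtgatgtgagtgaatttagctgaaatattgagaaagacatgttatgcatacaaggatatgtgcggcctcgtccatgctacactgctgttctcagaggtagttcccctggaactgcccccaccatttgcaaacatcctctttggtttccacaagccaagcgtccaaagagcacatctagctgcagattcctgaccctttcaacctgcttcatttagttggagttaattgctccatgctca
BCL2 region 19.8 kb downstream: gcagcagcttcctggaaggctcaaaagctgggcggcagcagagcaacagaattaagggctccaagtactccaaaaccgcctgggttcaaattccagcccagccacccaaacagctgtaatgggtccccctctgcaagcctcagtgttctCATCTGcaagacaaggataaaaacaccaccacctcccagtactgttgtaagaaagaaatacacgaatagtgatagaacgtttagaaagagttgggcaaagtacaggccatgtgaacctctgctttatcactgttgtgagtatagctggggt
BMF region 5.64 kb upstream: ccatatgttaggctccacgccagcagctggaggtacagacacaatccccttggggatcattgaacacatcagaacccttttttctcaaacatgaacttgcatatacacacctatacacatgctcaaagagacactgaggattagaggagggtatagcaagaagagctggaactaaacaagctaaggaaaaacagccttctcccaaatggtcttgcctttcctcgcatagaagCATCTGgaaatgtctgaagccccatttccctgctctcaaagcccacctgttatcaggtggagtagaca
BID region 10.7 kb upstream: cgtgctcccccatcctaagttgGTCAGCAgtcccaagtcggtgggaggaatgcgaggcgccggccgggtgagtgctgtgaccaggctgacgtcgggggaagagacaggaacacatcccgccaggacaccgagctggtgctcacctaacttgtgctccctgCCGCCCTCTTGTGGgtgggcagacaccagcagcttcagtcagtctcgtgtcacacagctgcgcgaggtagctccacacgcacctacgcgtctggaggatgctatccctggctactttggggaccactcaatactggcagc

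The first question was whether the promoters differed. At an unadjusted p-value under 0.05 in the authors' DESeq2 test, 3 of the 14 member promoter regions were higher and 1 was lower. Of all 20094 promoter regions, 2444 were higher and 8033 lower by that rule. Without the fold change limit 2 were higher and 1 lower by adjusted p-value, against 10.2% and 34.7% of all promoter regions. Their log2 fold changes ranged from -0.27 to 0.20 with a median of -0.09, and the median over all promoter regions was -0.13.

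The inhibitors differed widely in how open their promoters were, but little between the groups. The strongest promoter region of BCL2L1 had a mean signal of 3392, a level that 98.1% of the genes with a promoter region did not exceed. Its implied levels were 3423 in non-senescent and 3360 in senescent cells (log2 fold change -0.03 ± 0.06 SE, 95% interval -0.14 to 0.08). The BCL2L2 promoter was at 3059 and 3524 (0.20 ± 0.06, DESeq2 adjusted p = 0.000916), a difference of 1.15-fold that lies under the limit of the call. This region also covers start sites of HOMEZ and PPP1R3E, and the other promoter region of BCL2L2 is shared with BCL2L2-PABPN1, so neither belongs to BCL2L2 alone. The MCL1 promoter was at 2594 and 2462 (-0.08 ± 0.05, 95% interval -0.18 to 0.03). The strongest BCL2 promoter region was an order of magnitude weaker, at 330.02 and 279 (-0.24 ± 0.13, 95% interval -0.50 to 0.01), a mean signal that 20.2% of genes did not exceed.

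Among the BH3-only genes, the BCL2L11 promoter was the most open, with implied levels of 2492 in non-senescent and 2812 in senescent cells (0.17 ± 0.06, DESeq2 adjusted p = 0.00699). The BMF promoter had the smallest adjusted p-value of the 14 and went from 1965 to 1629 (-0.27 ± 0.05, DESeq2 adjusted p = 4.03e-06), a change of 1.21-fold that also lies under the limit. BID was at 682 and 649 (-0.07 ± 0.08), and BIK, the weakest of these promoters, at 231 and 196 (-0.24 ± 0.13). The BAK1 promoter, that of the pore-forming protein, was at 1374 and 1313 (-0.07 ± 0.06, 95% interval -0.19 to 0.06). The 95% intervals of the strongest promoter regions of these 9 genes all stay inside the limit of the call, reaching down to -0.50 at BCL2 and BIK and up to 0.31 at BCL2L2.

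**Figure D1:**
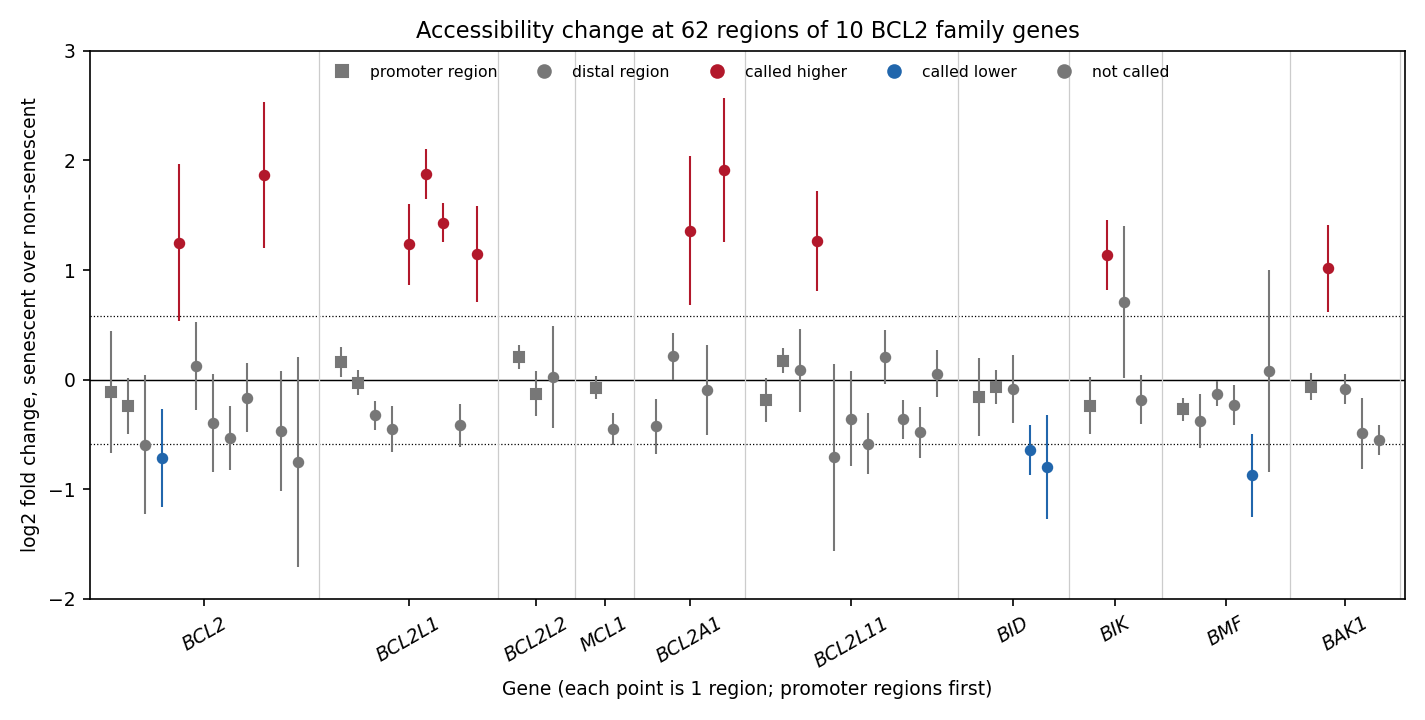
Log2 fold change (senescent over non-senescent, y axis) of each of the 62 regions, grouped by gene on the x axis, with squares for promoter regions, circles for distal regions, bars for 95% intervals and dotted lines at a fold change of 1.5. The 14 promoter regions lie between -0.27 and 0.20, and the 11 distal regions called higher lie between 1.02 and 1.91.

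The distal regions were compared next. BCL2L1 gave 4 of the 11 rises, and the 41 distal regions of the other 9 genes gave 7 rises (17.1%) and 4 falls (9.76%), shares near those of all distal regions. The median log2 fold change of the 48 regions was -0.17, against 0.03 for all distal regions, and by adjusted p-value alone, without the fold change limit, 17 (35.4%) were lower and 11 (22.9%) higher. Of all distal regions 19.7% were lower and 23.0% higher by that rule. By role and with the fold change limit, the inhibitors had 8 rises and 1 fall among 24 distal regions. The BH3-only genes had 2 rises and 3 falls among 20, and BAK1 1 rise and 0 falls among 4. Of all distal regions 17.4% were called higher and 10.9% lower. Of the 8 rises of the inhibitors, BCL2L1 gave 4, and BCL2 and BCL2A1 gave 2 each. Those of BCL2 and BCL2A1 had mean signals under 50, where 23.0% of all distal regions were called higher. The difference between the roles was not tested.

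BCL2L1 carried the changes with the highest Wald statistics. Its 7 distal regions all lie in its introns, 10.2 to 34.6 kb downstream of the nearest start site, and 4 of them rose. The region 23.2 kb downstream (chr20:31699044-31699598) rose from an implied level of 172 in non-senescent to 631 in senescent cells, a fold change of 3.66 (log2 1.87 ± 0.12 SE, 95% interval 1.64 to 2.10, DESeq2 adjusted p = 4.45e-54). The region 16.1 kb downstream (chr20:31706032-31706901) rose from 296 to 798, a fold change of 2.69 (1.43 ± 0.09, 1.25 to 1.61, adjusted p = 3.55e-53). By the Wald statistic these regions ranked 38 and 40 among the 16755 regions called higher in the whole table. That statistic is the log2 fold change over its SE, and the SE is smaller at higher signal. In size of change, all distal regions called higher had a median log2 fold change of 1.09 and reached 4.17. The other rises were smaller in signal. The region 25.2 kb downstream (chr20:31697200-31697429) rose from 80.1 to 188 (1.23 ± 0.19, adjusted p = 1.05e-09), and that 10.2 kb downstream (chr20:31712132-31712529) from 48.7 to 108 (1.15 ± 0.22, adjusted p = 2.05e-06).

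Other distal regions of BCL2L1 shifted the other way, 1 of them between the rises and 2 beyond them. The region 13.8 kb downstream (chr20:31708344-31709211) lies 2311 bp from the rise at 16.1 kb, midpoint to midpoint, and went from 608 to 455 (-0.42 ± 0.10, DESeq2 adjusted p = 0.000153). Farther into the gene, the region at 28.3 kb (chr20:31693808-31694716) went from 412 to 301 (-0.45 ± 0.11, adjusted p = 0.000122) and that at 34.6 kb (chr20:31687569-31688311), the most open of the 7, from 1703 to 1358 (-0.33 ± 0.07, adjusted p = 6.69e-06). These 3 shifts are under 1.5-fold and were not called. The 4 rising regions span 15016 bp, and their implied levels summed to 597 in non-senescent and 1724 in senescent cells. Over all 7 distal regions the sums were 3320.1 and 3839, a ratio of 1.16.

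Other genes show how often such a share occurs. Of the 518 genes with 7 distal regions, 31 (5.98%) had 4 or more called higher. Of the 2414 genes with 7 or more, 418 (17.3%) had 4 or more called higher, and 54 (2.24%) had a share of rises at least as high. This is a description of the table and carries no p-value, because BCL2L1 was singled out with its values known.

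**Figure D2:**
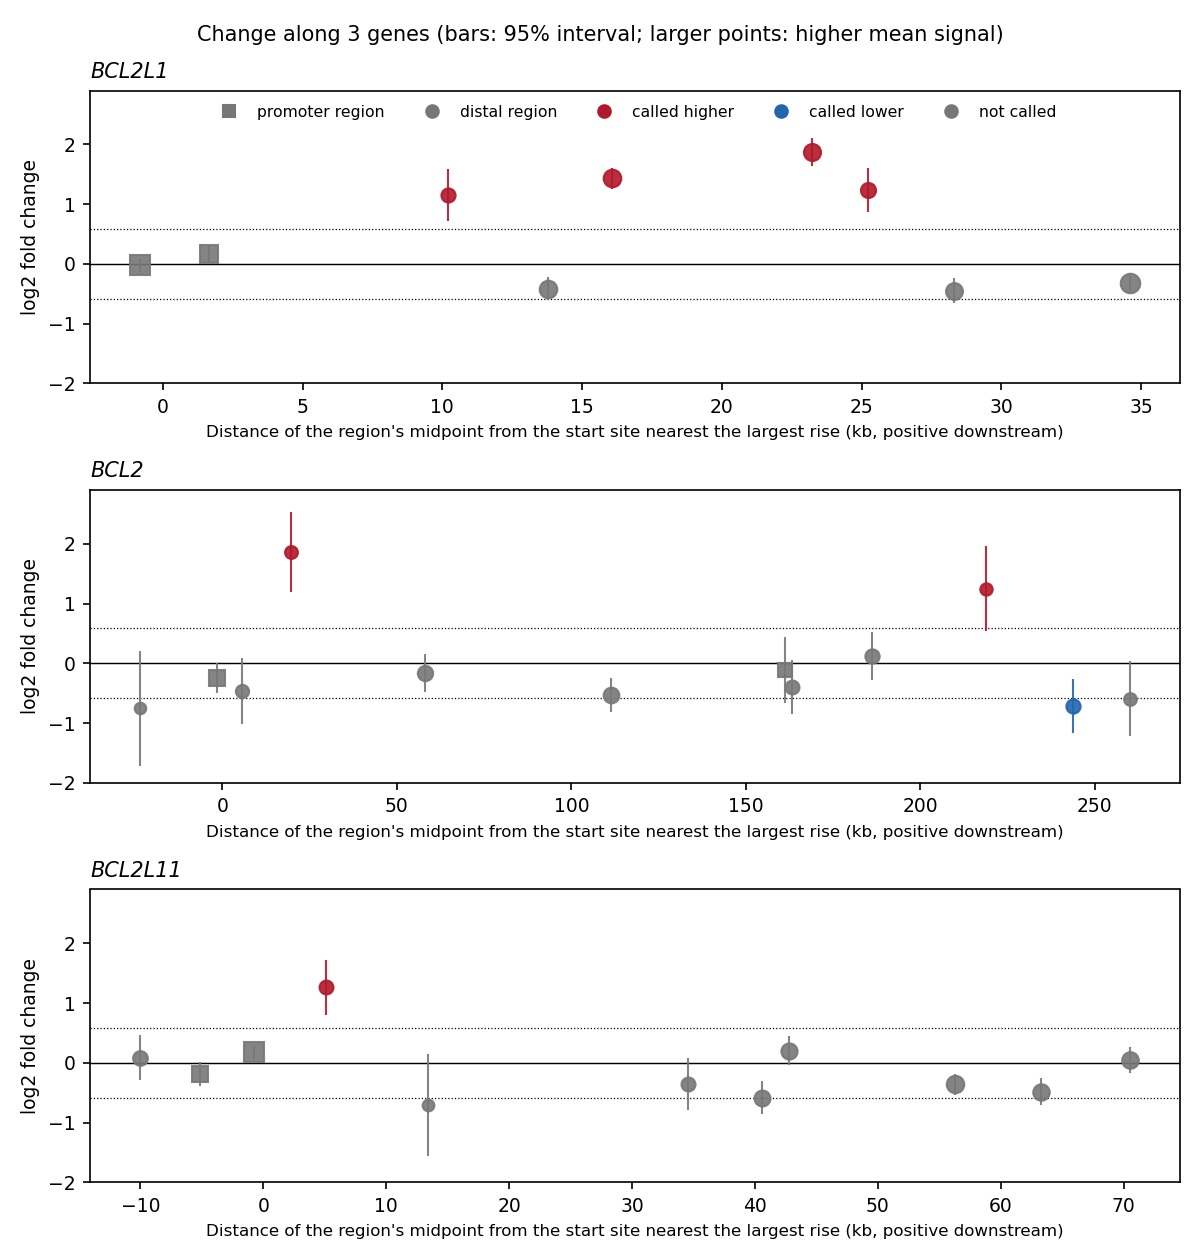
Log2 fold change (y axis, senescent over non-senescent) against the distance in kb of each region's midpoint from the start site nearest the largest rise of the gene (x axis, positive downstream), for BCL2L1, BCL2 and BCL2L11. Bars are 95% intervals, squares are promoter regions, and larger points have a higher mean signal. At BCL2L1 the rises at 10.2, 16.1, 23.2 and 25.2 kb stand on either side of a region with a log2 fold change of -0.42 at 13.8 kb, while at BCL2 and BCL2L11 rises are few.

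At BCL2, the founding inhibitor of the family, 2 of 10 distal regions rose and 1 fell. An intronic region 19.8 kb downstream (chr18:63298781-63299306) rose from an implied level of 16.6 to 60.5, a fold change of 3.64 (log2 1.87 ± 0.34 SE, 95% interval 1.20 to 2.53, DESeq2 adjusted p = 4.18e-07). An intergenic region beyond the gene (chr18:63099761-63100108), 58.3 kb downstream of an internal start site, rose from 17.7 to 42.2 (1.25 ± 0.37, 0.53 to 1.97, adjusted p = 0.00246). Farther out, chr18:63074979-63075370 fell from 103 to 62.8 (-0.71 ± 0.23, adjusted p = 0.0064). The other 7 regions had log2 fold changes from -0.75 to 0.12 and were not called. Of these, an intronic region (chr18:63206949-63208001), the most open of the 10, went from 218 to 151 (-0.53 ± 0.15, adjusted p = 0.00143), and 1 weak region lies in an intron of the neighbouring gene KDSR. Both rises were weak regions whose mean signals were 38.5 and 29.95, so their intervals are wide. Summed over its 10 distal regions, BCL2 went from 795 to 688 by implied level.

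BCL2A1, an NF-κB target in immune cells that encodes the inhibitor BFL1, had 5 distal regions, all intergenic, of which 2 rose. The region 36.6 kb upstream (chr15:80007606-80007914) rose from 15.3 to 57.7, a fold change of 3.77 and the largest of all member regions (log2 1.91 ± 0.33 SE, 95% interval 1.26 to 2.57, DESeq2 adjusted p = 1.1e-07). The region 17.5 kb upstream (chr15:79988439-79988930) rose from 20.9 to 53.6 (1.36 ± 0.35, adjusted p = 0.000439). The region between them had a mean signal of 81.4 and a log2 fold change of -0.09, and was not called. On the side of the gene lay stronger regions that were not called either, at a mean signal of 397 with a log2 fold change of 0.21 and at 224 with -0.42. MCL1 and BCL2L2 had 1 distal region each. That of MCL1, in an annotated intron of the gene (chr1:150567407-150568676), went from 995 to 727 (-0.45 ± 0.07, adjusted p = 1.07e-08), a 1.37-fold change under the limit, and that of BCL2L2, in an intron of HOMEZ, was at 72.4 and 73.7 (0.03 ± 0.24).

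The BH3-only genes moved in both directions. BCL2L11 had 1 called region among 9, an intronic one 5.11 kb downstream (chr2:111127594-111127785) that rose from an implied level of 41.2 to 99.03 (log2 1.26 ± 0.23 SE, 95% interval 0.81 to 1.72, DESeq2 adjusted p = 5.3e-07). Its intronic region 40.6 kb downstream (chr2:111162964-111163378) went from 260.4 to 174 with an adjusted p of 0.00021, but its log2 change of -0.5846 stood just short of the limit of 0.585. Beyond the gene, the regions 56.2 and 63.2 kb downstream went from 565 to 439 (-0.36 ± 0.09, adjusted p = 0.000259) and from 336 to 240.2 (-0.48 ± 0.12, adjusted p = 0.000195). The remaining 5 distal regions of BCL2L11 had log2 fold changes from -0.71 to 0.20 and adjusted p-values of at least 0.184. BIK had 1 rise among 3, an intergenic region 6.45 kb upstream (chr22:43103994-43104608) that went from 90.2 to 198 (1.13 ± 0.16, 0.81 to 1.45, adjusted p = 7.07e-11). A weak intronic region 8.67 kb downstream, at 21.9 and 35.8, had a value in the same direction that did not pass (0.71 ± 0.35, adjusted p = 0.0928), and the strongest of the 3, at 327 and 288, had -0.18 ± 0.11.

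BID and BMF showed falls and no rise. At BID, whose protein is cleaved by caspase-8 to link death receptors to mitochondria, 2 of 3 distal regions fell. The intronic region 12.9 kb downstream (chr22:17760438-17761755) went from 436 to 279.8, 1.56-fold lower (log2 -0.64 ± 0.12 SE, DESeq2 adjusted p = 2.79e-07), and the intergenic region 10.7 kb upstream (chr22:17785095-17785675) from 81.1 to 46.7 (-0.80 ± 0.24, adjusted p = 0.00365). At BMF 1 of 5 fell, an intergenic region 5.64 kb upstream (chr15:40114301-40114759) that went from 128 to 70.2, 1.83-fold lower (-0.87 ± 0.19, 95% interval -1.25 to -0.49, adjusted p = 4.07e-05). The third distal region of BID, at 158 and 148, had -0.09 ± 0.16. Among the other BMF regions, the intronic ones 13.2 and 5.16 kb downstream went from 459 to 353 (-0.38 ± 0.13, adjusted p = 0.00961) and from 651 to 554 (-0.23 ± 0.09, adjusted p = 0.0328), neither past the limit. The strongest distal region of all members, in a BMF intron 7.17 kb downstream, had a mean signal of 2240 and a log2 fold change of -0.13 ± 0.06.

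BAK1 was the effector among the members. Its intergenic region 23.2 kb downstream (chr6:33556947-33557239) rose from an implied level of 64.8 to 131 (log2 1.02 ± 0.20 SE, DESeq2 adjusted p = 4.35e-06), the smallest of the called rises. A stronger region 10.1 kb upstream (chr6:33589762-33590934) went from 1251 to 854 (-0.55 ± 0.07, adjusted p = 4.16e-14). That change is precise, with a 95% interval from -0.69 to -0.42, but at 1.47-fold it was not called. The region 5.59 kb upstream went from 161 to 115 (-0.49 ± 0.16, adjusted p = 0.00843), and the region 8996 bp downstream, at 1070.0 and 1009.8, had -0.08 ± 0.07.

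**Figure D3:**
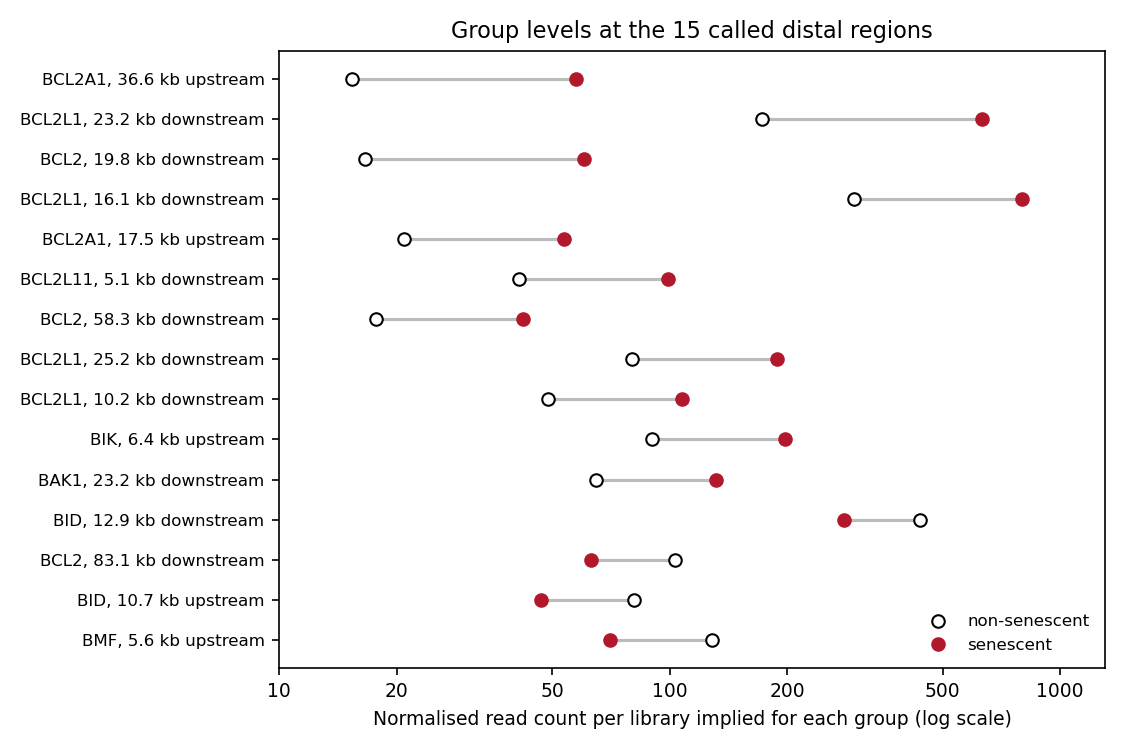
Implied normalised read count per library (x axis, log scale) in non-senescent (open circles) and senescent cells (filled circles) at the 15 called distal regions, each named on the y axis by gene and distance from the nearest start site. The rises at BCL2L1 16.1 and 23.2 kb downstream reach 798 and 631, while those at BCL2 and BCL2A1 stay under 61.

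The called rises were compared with the other regions in place, signal and composition. Of the 11, 6 lay in introns and 5 between genes, and of all 48 distal regions 28 lay in introns, 19 between genes and 1 in an exon. The rises had a median mean signal of 78.3, a median width of 397 bp and a median GC content of 47.2%, against 217, 548 bp and 50.0% for the 33 distal member regions that were not called. Over all distal regions called higher the medians were 59.6, 358 bp and 45.4%. Of the 10 distal member regions with a mean signal under 50, 4 were called higher, and of the 20 with at least 200, 2 were, both at BCL2L1. Of all distal regions of these classes, 23.0% and 7.6% were called higher. The fold change in the table also moves with signal, with a median log2 value of 0.29 in regions under 50 and -0.11 over 1000, and the part of this trend in the member changes was not tested beyond removing it, which left all 11 rises called.

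**Figure D4:**
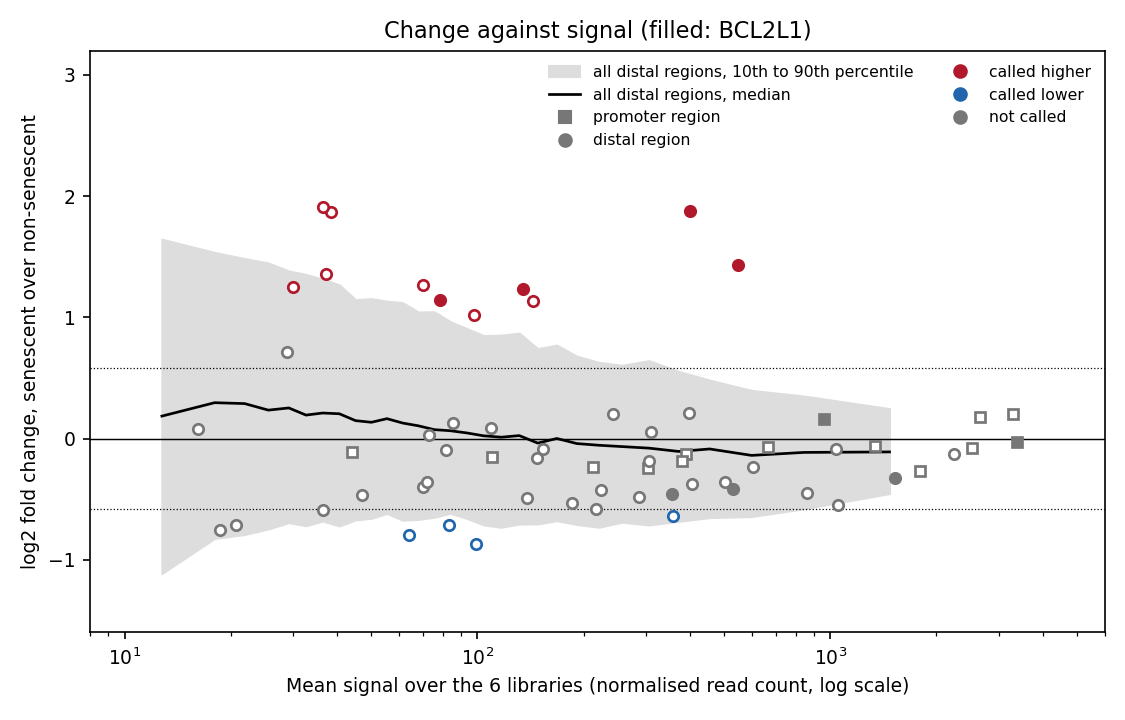
Log2 fold change (y axis) against mean signal over the 6 libraries (x axis, log scale) for the 62 member regions, with filled symbols for BCL2L1, over the median (line) and the 10th to 90th percentile (grey) of all distal regions. The rises of BCL2L1 at mean signals of 401 and 547 lie farther above the grey band than any other, and the BCL2 rise at a mean signal of 29.95 lies within it.

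Known binding motifs were sought on both strands in the 300 bases around each region's middle. Among the 11 rises, the AP-1 motif TGANTCA occurred in 2, at BCL2L1 (23.2 kb) and BAK1, where 11.3% of all distal regions held it. The homeodomain motif TAATTA occurred in 2, at BCL2L1 (16.1 kb) and BCL2L11 (9.57% of all distal regions). The E-box CAGATG, which NEUROD1 binds, occurred in 2, at BCL2 and BAK1, and in 21 of the 48 distal member regions (32.6% of all distal regions). The forkhead motif GTAAACA (9.26%), the MAF motif TGCTGAC (7.67%) and the CRE TGACGTCA (0.319%) matched in 0 of the 11, as did the NF-κB (7.32%), RFX (0.575%), CTCF (5.08%) and p53 (0.328%) motifs. The fallen region upstream of BID held the CTCF and MAF motifs, the E-box lay in the fallen regions of BMF and BCL2, and the NF-κB motif in those of BCL2 and of BID 12.9 kb downstream. Of all distal regions called lower, 1.69% held the CTCF motif, 5.32% the MAF motif, 46.8% the E-box and 8.44% the NF-κB motif. In the printed windows the BCL2A1 region held none of these motifs. A match is a stretch of letters and shows no binding, and no share was tested against that of all regions.

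Other genes of the pathway were counted by their strongest promoter region. Of a list of 13 other family genes, 12 had a promoter region, of which 1 was called higher and 1 lower. BBC3, which encodes the p53-induced BH3-only protein PUMA, rose by 1.90-fold at a mean signal of 187 (log2 0.93 ± 0.16 SE, DESeq2 adjusted p = 3.15e-08), and BCL2L14 fell (-1.28 ± 0.32, adjusted p = 0.000261) at a mean signal of 41.02. Of their 42 distal regions 3 (7.14%) were called higher and 3 (7.14%) lower, against 17.4% and 10.9% of all distal regions. Of 19 genes that act with or after permeabilisation all had a promoter region, and 3 fell and 0 rose. Among these were BIRC3 (-0.75 ± 0.08, DESeq2 adjusted p = 1.2e-17), which encodes an inhibitor of apoptosis protein, and BIRC5 (-0.60 ± 0.13, adjusted p = 2.06e-05), which encodes survivin, a protein also needed in mitosis. Over the strongest promoter region of all 15493 genes, 1.39% were called higher and 7.02% lower.

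The beta cell label was checked at marker genes. All 12 beta cell markers had a promoter region, with mean signals of 183 to 7894, and 2 were called higher and 0 lower. Of the markers of other cell types, 4 of 4 alpha, 2 of 2 delta, 3 of 4 acinar, 2 of 3 duct, 1 of 3 mesenchyme, 2 of 3 endothelium and 1 of 4 immune genes had one. By their strongest promoter region 1 alpha gene was called higher, and 2 delta, 1 duct and 1 endothelium genes were called lower. The part of this in the member values was not tested.

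At the edge of the 100 kb limit, the farthest member region, 99.6 kb from a BCL2 start site, had a log2 fold change of -0.59 ± 0.32, and the nearest one outside, 174 kb from BCL2L11, had -0.29 ± 0.21. Beyond the limit lay 10 regions, all near BCL2L11, of which 0 were called. At the promoter edge, the BCL2L11 region 1962 bp from a start site had -0.19 ± 0.10 and the BCL2 region 2633 bp away, counted as distal, -0.40 ± 0.23. The precision of each value followed its signal. The median SE of the member regions was 0.35 in the 11 under a mean signal of 50 and 0.06 in the 10 over 1000, against 0.38 and 0.06 for all regions of the same signal.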

How the data were processed

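ATAC-seq libraries of 3 senescent and 3 non-senescent EndoC-βH3 samples, grouped by their titles, were used. According to the study's methods, the authors used Trim Galore for trimming and Bowtie2 for alignment to hg38, dropped mitochondrial and duplicate reads, shifted reads for the transposase, took the union of MACS2 peaks, counted reads in it with bedtools and ran DESeq2, whose version is not given in the sources used here. These steps are usual for ATAC-seq. The mean signal in the authors' deposited table is a count divided by size factors and averaged over libraries. Log2 fold changes with standard errors, a score (the Wald statistic) and p-values, raw and adjusted, are all deposited as the authors' model gave them. It was checked that dividing fold change by standard error gives the score and that the adjusted p-values follow Benjamini-Hochberg over all 108542 regions.

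These are columns of the authors' own comparison. They were used because the table has 0 columns per library, so no count model could be run here and the depth per library cannot be read. The precision is the standard error.

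Start sites came from GENCODE 44. Regions were placed (intron, exon, intergenic) by their midpoint, and coordinates are as deposited. A 95% interval is 1.96 standard errors on either side. Implied group levels assume that the fold changes were not shrunken, which the table does not state. Trends were removed as running medians with 1000 regions to each side. The NF-κB, RFX and CTCF motifs were matched by consensus, and the p53 motif with 2 mismatches outside its core. Every member is named, with its strongest promoter region and each called region. Of the other genes, those called at the strongest promoter region are named, except 1 whose values are not reported here. A few further regions, named because they adjoin called ones or stand near a limit, were chosen after their values were seen. The members and gene lists were chosen with earlier results of these data known. The steps that apply the call and remove a trend were tested on simulated fold changes. Python 3.11.15, pandas 2.3.3 and SciPy 1.17.1 were used.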

Additional observations from a re-analysis of the deposited data

How the results depend on the processing

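No paired analysis was possible because only the authors' model output, without values per library, is in the table. For the same reason leaving out a replicate and another normalisation were not run. The call at an adjusted p-value under 0.01, centring on the median, a promoter window of 1 kb and a distal limit of 50 kb kept each count of member regions within 1.5 times. Testing by the Wald statistic whether the fold change exceeds 1.5 left 6 rises and 0 falls among all member regions and among the distal ones, where 4.43% of all distal regions rose and 2.01% fell. The 6 rises were 3 of the 4 at BCL2L1, without that 10.2 kb downstream, and 1 each at BCL2, BCL2A1 and BIK. A mean signal of at least 50 left 7 rises and 4 falls among 51 member regions. Counting start sites of transcripts of any type as nearest left 6 rises and 2 falls, since fewer regions (19 distal ones) then belong to a member. It kept 2 of the 4 rises of BCL2L1, and not that 23.2 kb downstream, whose nearest start site is then that of BCL2L1-AS1. The rises of BCL2A1 and BAK1 and the falls of BID also left their genes. Shares over all distal regions were not counted for the signal limit or for start sites of any type. Without the fold change limit 18 member regions fell (17 of them distal), and at promoters 2 rose and 1 fell, where 21.4% of all regions and 19.7% of all distal ones fell. With the trend on GC content removed, 7 member regions fell, all among the 48 distal ones, where 12.9% of all distal regions fell. The promoter median log2 fold change of -0.09 turned to 0.0016 once the trend on mean signal was taken out and to 0.035 once that on GC content was, so its sign is not fixed. The distal median stayed between -0.24 and -0.13. Of the 15 called regions, that of BID 12.9 kb downstream lost its call once the trend on mean signal was taken out, and none changed direction under the settings run on single regions. Weak regions limit the precision. With a median SE of 0.35 under a mean signal of 50, changes near 1.5-fold there were not detectable.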
